A study of Mus musculus with 17 samples.

Results

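A set of 10 genes that respond to glucocorticoid hormones, or act in that response, was followed in RNA from mouse cochleae 2 days after noise exposure: Fkbp5, Zbtb16, Tsc22d3, Sgk1, Ddit4, Klf9, Nr3c1, Errfi1, Mt1 and Mt2. The 10 genes were taken by symbol from 35285 genes in the deposited table. Fkbp5 had been picked because it differed between the noise-exposed and the control group, and the others because they are textbook members of the same response. Values for the 10 genes against the control group are therefore given as a description, without p-values, and counts of calls among them stand only beside the share of all genes called.

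Cochlear RNA of 17 male C57BL/6J mice of wild-type genotype was sequenced, with 1 library per mouse. The 3 control mice had saline injections and no noise. The 7 mice of the noise exposure (NE) group, awake and unrestrained, heard noise of 8 to 16 kHz for 2 h at 100 dB. The 7 mice of the brimonidine group had the same noise and 3 intraperitoneal doses of 1 mg/kg brimonidine, an α2-adrenergic receptor agonist, given the day before, on the day of and the day after the exposure. Mice entered the study at 8 weeks of age. All groups had hearing tests before they were killed, for which the study used anaesthesia with ketamine and xylazine, itself an α2-adrenergic agonist. The methods do not say whether NE mice were injected with saline, nor at what hour tissue was taken, and none of the sequenced groups had brimonidine without noise. The sample labels call the tissue cochlear cells and the cell type interstitial cells, while the study's methods name both the cochlea and the basilar membrane as the source of RNA.

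Glucocorticoids, mainly corticosterone in mice, enter cells and bind the glucocorticoid receptor, which is encoded by Nr3c1 and held ready by the HSP90 chaperones. The bound receptor moves to the nucleus, attaches to glucocorticoid response elements in DNA and raises or lowers transcription of nearby genes. Fkbp5 encodes FKBP51, a co-chaperone that lowers the receptor's affinity for hormone, so its induction closes a feedback loop. In the inner ear the receptor is widely present, and glucocorticoids are used clinically against sudden hearing loss.

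Library depth, recovered from the steps in the FPKM values, was 14457733 to 16080796 counted fragments in the control group, 15769236 to 18288854 in the NE group and 16624437 to 18224926 in the brimonidine group. FPKM is a fragment count scaled by exon length and by the library's total of counted fragments. The cochlear gene Coch was present in every group, at 444 to 1040 FPKM in control, 468 to 719 in NE and 555 to 763 in brimonidine libraries. It was the most abundant of 7 markers of cochlear supporting cells and matrix. Of these, 5 of 7 reached 1 FPKM in at least 3 libraries, and Tecta and Tectb did not. Only 3 of 5 hair cell markers did. The control libraries stood apart in tissue makeup. The summed level of 8 markers of cerebellar neurons, all detected, was 188 to 509 FPKM in control libraries against 19.0 to 28.0 in NE and 19.7 to 69.3 in brimonidine libraries, where brimonidine 5 held the highest value. The sum of 7 neutrophil markers, all detected, was 9233 FPKM in control 2 and at least 38162 in each of the other 16 libraries. The sum of 4 skeletal muscle markers, all detected, was 135, 378 and 154 FPKM in controls 1, 2 and 3, against 271 to 703 in NE and 211 to 576 in brimonidine libraries, so that controls 1 and 3 were below all 14 exposed libraries. Control 2 was also the highest of all libraries in summed markers of stria vascularis (117 FPKM), spiral ganglion (93.4 FPKM) and erythroid cells (9503 FPKM). The same held for hair cell markers (15.1 FPKM) and for supporting cell and matrix markers (1334 FPKM). None of these markers was listed at 0 in all 17 libraries. Their part in the differences from the control group was not tested, and values without control 2 are given below.

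Promoter sequences from RefSeq (build GRCm38.p6) were found for 8 of the 10 genes, in 16 windows of 250 bases upstream of an annotated transcript start. Windows were searched on both strands for the half-sites AGAACA and GGAACA of the glucocorticoid response element, for the full palindrome, in which AGAACA is followed after 3 bases by TGTTCT, and for the metal response element, written TGCACNC or TGCGCNC. The palindrome occurred in 3 of 32851 windows of all genes (0.00913%), and 1 of the 3 belonged to Sgk1. AGAACA occurred in 16.1% of all windows, GGAACA in 13.3% and the metal response element in 21.4%. The Sgk1 window is shown for its palindrome, that of Tsc22d3 for its half-site, that of Fkbp5 because it held none of these motifs, and those of Mt1 and Mt2 for their metal response elements. Capitals mark matches to any of the motifs, on either strand, and bases from the gene's own first exon onward were left out.
Sgk1, chr10:21993640-21993889, plus strand: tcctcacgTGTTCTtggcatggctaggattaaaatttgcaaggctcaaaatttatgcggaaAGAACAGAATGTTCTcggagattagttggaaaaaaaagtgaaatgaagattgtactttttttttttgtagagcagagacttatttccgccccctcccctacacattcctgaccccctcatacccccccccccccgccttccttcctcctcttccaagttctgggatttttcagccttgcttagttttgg
Tsc22d3, chrX:140600660-140600772, minus strand: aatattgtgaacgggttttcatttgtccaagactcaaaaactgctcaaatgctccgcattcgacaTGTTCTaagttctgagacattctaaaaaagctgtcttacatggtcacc
Fkbp5, chr17:28486150-28486399, minus strand: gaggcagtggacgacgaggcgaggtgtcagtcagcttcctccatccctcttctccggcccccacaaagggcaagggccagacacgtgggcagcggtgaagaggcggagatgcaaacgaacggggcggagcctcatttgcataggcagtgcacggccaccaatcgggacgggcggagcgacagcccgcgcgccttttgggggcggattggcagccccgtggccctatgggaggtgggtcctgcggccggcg
Mt1, chr8:94178839-94179081, plus strand: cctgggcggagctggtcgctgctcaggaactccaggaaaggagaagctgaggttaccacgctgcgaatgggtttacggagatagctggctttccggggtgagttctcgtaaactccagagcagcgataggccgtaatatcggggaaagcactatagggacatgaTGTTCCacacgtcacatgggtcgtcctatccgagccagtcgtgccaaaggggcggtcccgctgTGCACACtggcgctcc
Mt2, chr8:94172368-94172617, plus strand: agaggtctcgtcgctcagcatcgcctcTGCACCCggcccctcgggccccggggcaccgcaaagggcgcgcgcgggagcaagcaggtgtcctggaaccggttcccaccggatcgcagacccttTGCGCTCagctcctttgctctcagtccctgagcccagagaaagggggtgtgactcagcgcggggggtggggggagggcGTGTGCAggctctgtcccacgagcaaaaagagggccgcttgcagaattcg
The Sgk1 palindrome began 189 bases before the transcript start and held 2 of the 3 AGAACA matches in the window. The Mt1 window had 1 GGAACA match on the minus strand and 1 metal response element, at 86 and 23 bases before the start. All 250 bases of the Mt2 window, which had 3 metal response elements, also lie in an exon of Gm45774, a gene on the opposite strand. A match describes letters in a window and not a bound site, and the response elements known for Fkbp5 lie far outside such a window, in its introns.

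Fkbp5 (ENSMUSG00000024222, chromosome 17, 28399095 to 28517524, minus strand) was about 2 times higher after noise. Its level was 12.0, 5.42 and 10.7 FPKM in controls 1, 2 and 3. In the NE group it ranged from 16.2 to 25.3 FPKM with a median of 18.7, and in the brimonidine group from 16.3 to 24.9 with a median of 20.2. All 14 exposed libraries were above all 3 controls, and the exposed groups overlapped each other almost fully. The difference in mean log2(FPKM + 1), the scale of every log2 difference below, was 1.06 ± 0.21 (SE) for NE minus control and 1.05 ± 0.21 for brimonidine minus control. Control 2, the library lowest in neutrophil markers and highest in cerebellar markers, also had the lowest Fkbp5, and without it the differences were 0.75 and 0.74. In whole tissue, fewer cells of a type and less RNA per cell cannot be told apart.

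Nr3c1 (ENSMUSG00000024431), the receptor itself, varied least of all the genes, with a coefficient of variation of 9.42% over the 17 libraries. It stood at 17.9, 20.8 and 19.3 FPKM in the controls. NE libraries ranged from 13.3 to 18.3 FPKM with a median of 17.5, and brimonidine libraries from 16.4 to 19.7 with a median of 18.7. All 3 groups overlapped, and NE 6 alone was below 16 FPKM. The log2 difference was -0.19 ± 0.10 for NE minus control and -0.06 ± 0.07 for brimonidine minus control.

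Zbtb16 (ENSMUSG00000066687, chromosome 9, 48654297 to 48836222, minus strand) encodes PLZF, a zinc finger repressor that glucocorticoids strongly induce in many tissues. It was a low gene, at 1.23, 2.07 and 1.88 FPKM in the controls. NE libraries ranged from 2.06 to 8.20 FPKM with a median of 4.74, and brimonidine libraries from 2.27 to 3.93 with a median of 2.91. Among NE libraries 6 of 7, and among brimonidine libraries 7 of 7, were above every control, while NE 6 lay at the level of control 2. The log2 difference was 1.02 ± 0.29 for NE minus control and 0.54 ± 0.15 for brimonidine minus control. Zbtb16 was also the most variable of these genes within the NE group, with a coefficient of variation of 43.8% against 19.8% in the brimonidine group.

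Tsc22d3 and Ddit4, both classically raised by glucocorticoids, were lower in the exposed groups. Tsc22d3 (ENSMUSG00000031431, chromosome X, 140539528 to 140600659, minus strand) encodes GILZ, which restrains NF-κB and AP-1. It was at 38.4, 35.7 and 43.7 FPKM in the controls. NE libraries ranged from 19.6 to 34.0 FPKM with a median of 26.5, and brimonidine libraries from 20.9 to 33.4 with a median of 28.2, so neither group overlapped the controls. The log2 difference was -0.57 ± 0.17 for NE minus control and -0.49 ± 0.13 for brimonidine minus control.

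Ddit4 (ENSMUSG00000020108, chromosome 10, 59949669 to 59951834, minus strand) encodes REDD1, an inhibitor of mTORC1 that hypoxia and ATF4 also induce. It was at 30.7, 28.1 and 45.3 FPKM in the controls. NE libraries ranged from 16.2 to 27.4 FPKM with a median of 21.2, and brimonidine libraries from 12.6 to 27.2 with a median of 19.9. No exposed library reached the lowest control. The log2 difference was -0.65 ± 0.17 for NE minus control and -0.77 ± 0.21 for brimonidine minus control.

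Fkbp5 and Tsc22d3 thus moved apart from the controls in opposite directions. The ratio of Fkbp5 to Tsc22d3 within a library was 0.152 to 0.313 in controls (median 0.244), 0.631 to 0.913 in NE (median 0.746) and 0.579 to 0.994 in brimonidine (median 0.673). A ratio within a library is free of that library's scaling, and it shows unequal change of the pair, not which gene changed.

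**Figure D1:**
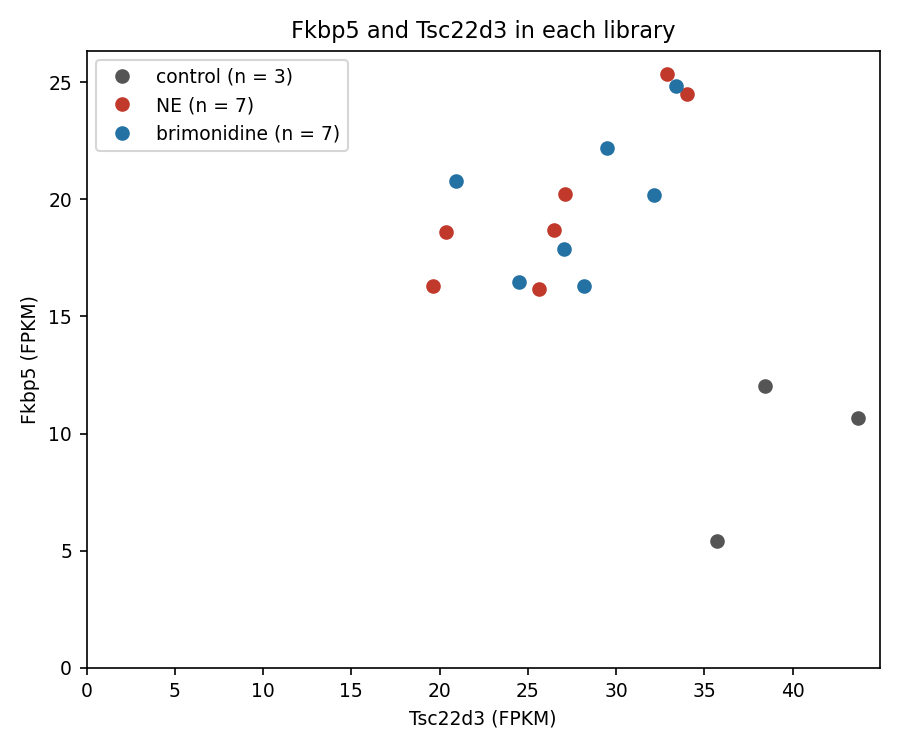
Fkbp5 (vertical axis) against Tsc22d3 (horizontal axis), both in FPKM, with 1 point per library: 3 control, 7 NE and 7 brimonidine. The controls sit at the lower right, at 5.42 to 12.0 FPKM of Fkbp5 and 35.7 to 43.7 of Tsc22d3, while the 2 exposed groups share the upper left.

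Klf9 (ENSMUSG00000033863, chromosome 19, 23141226 to 23166911, plus strand), a Krüppel-like factor that glucocorticoids and thyroid hormone induce, was at 17.3, 34.1 and 24.2 FPKM in the controls. NE libraries ranged from 10.98 to 19.9 FPKM and brimonidine libraries from 11.7 to 22.03. Both groups overlapped control 1, and the log2 differences of -0.56 ± 0.22 and -0.65 ± 0.21 from control shrank to -0.32 and -0.41 without control 2, the library highest in Klf9 and, among the controls, in muscle markers. Errfi1 (ENSMUSG00000028967, chromosome 4, 150853919 to 150868892, plus strand), which encodes the EGF receptor inhibitor MIG6, was at 14.7, 21.001 and 20.7 FPKM in the controls, at 12.1 to 19.3 in NE and at 11.3 to 16.9 in brimonidine libraries. Its log2 differences from control were -0.35 ± 0.15 and -0.36 ± 0.13, and the groups overlapped.

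Sgk1 (ENSMUSG00000019970, chromosome 10, 21882184 to 21999903, plus strand) encodes a kinase that regulates sodium channels and transporters. It had nearly the same level in all groups, at 17.9, 23.1 and 20.5 FPKM in the controls, 15.7 to 22.1 in NE (median 20.2) and 17.2 to 22.3 in brimonidine (median 18.5). Its log2 difference from control was -0.09 ± 0.13 for NE and -0.08 ± 0.10 for brimonidine, and -0.0028 and 0.01 without control 2.

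The metallothioneins bind zinc and copper and are induced by metals through MTF1 as well as by glucocorticoids. Mt1 (ENSMUSG00000031765, chromosome 8, 94179082 to 94180327, plus strand) was the most abundant of the genes, at 54.9, 46.9 and 60.6 FPKM in the controls. NE libraries ranged from 39.9 to 78.2 FPKM with a median of 50.03, and brimonidine libraries from 39.3 to 63.0 with a median of 42.3. The log2 difference was -0.05 ± 0.20 for NE minus control and -0.25 ± 0.14 for brimonidine minus control, within overlapping groups, and -0.15 and -0.34 without control 2. Mt2 (ENSMUSG00000031762, chromosome 8, 94172664 to 94173568, plus strand) was listed at 0 in all 17 libraries, where 3 fragments would have given 0.279 to 0.353 FPKM. It was 1 of 48 protein-coding genes listed at 0 throughout. In GENCODE M21, 432 of its 588 exon bases (73.5%) also lie in an exon of Gm45774 on the opposite strand, which was listed at 0 to 0.107 FPKM. Exon overlap with another gene was present for 20.8% of the 48 genes and for 32.4% of all protein-coding genes. How the counting treated strand and shared bases is not given in the sources used here. The part of the Gm45774 overlap in the Mt2 value of 0 was not tested.

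**Figure D2:**
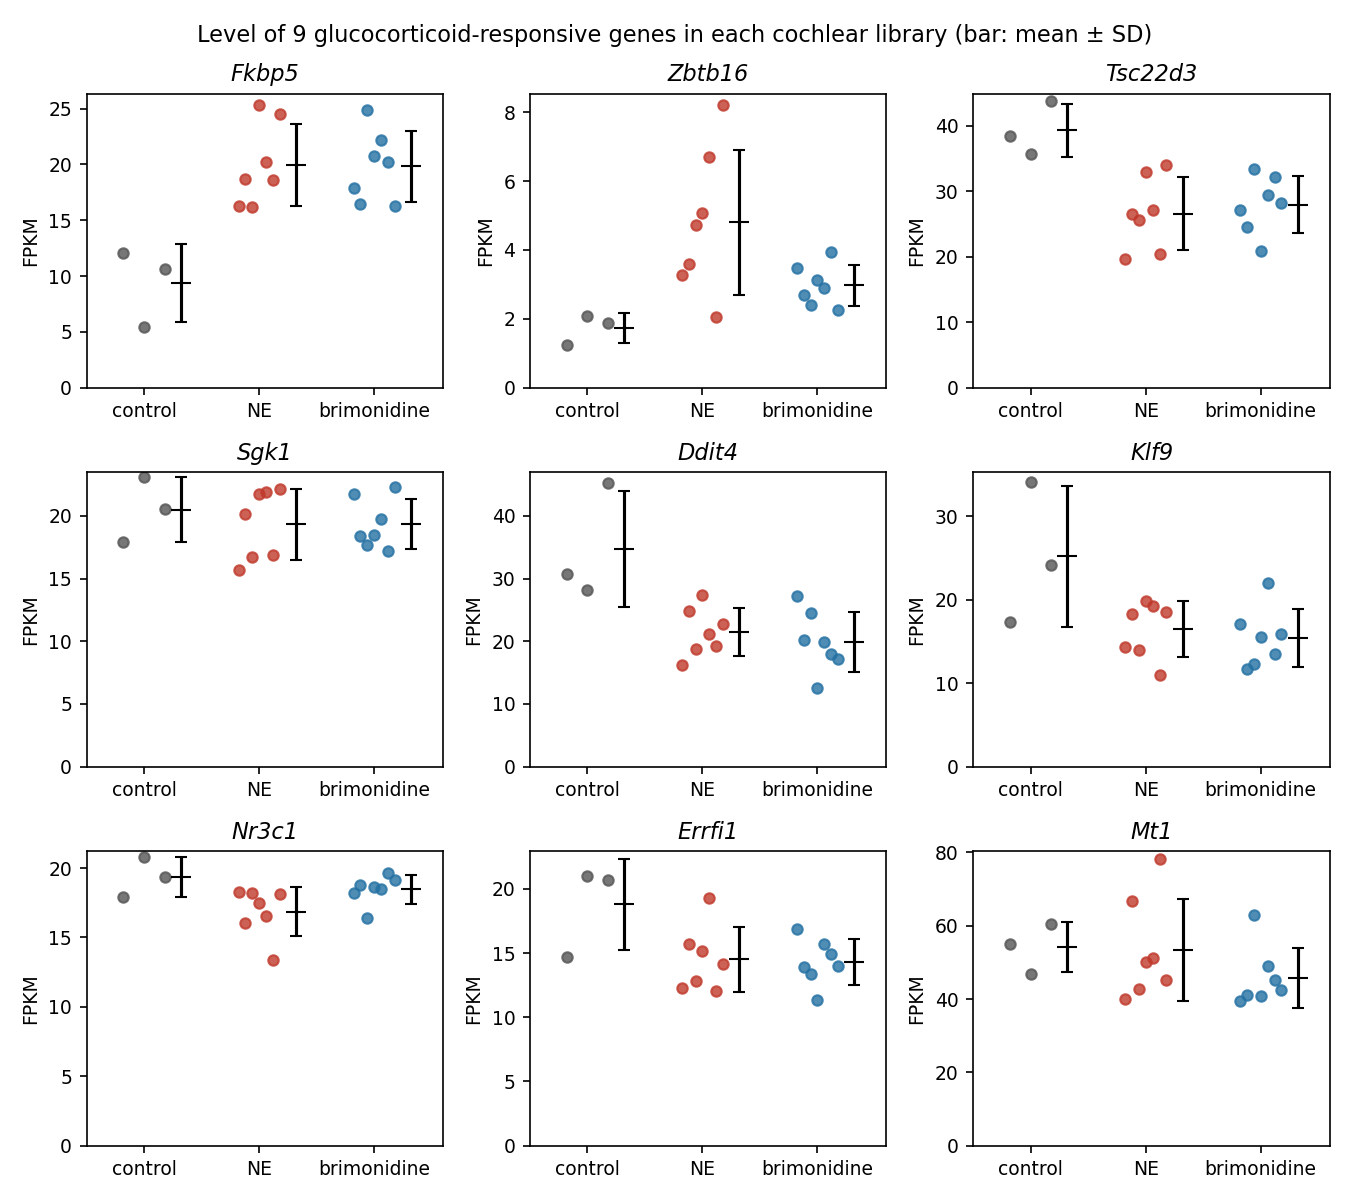
Level in FPKM (vertical axes, each starting at 0) of 9 genes in each library of the control, NE and brimonidine groups (points), with the group mean ± SD beside them (black). Fkbp5 lies above and Tsc22d3 and Ddit4 lie below the controls in all 14 exposed libraries, and the other genes overlap with at least 1 exposed group.

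Each comparison was fitted over all genes with limma, and a gene was called at a Benjamini-Hochberg adjusted p under 0.05. Between NE and control, 9 of the 10 genes were tested, and Mt2 did not pass the filter on low values. Fkbp5 and Zbtb16 were called higher, where 2.12% of all 15950 genes tested were called higher, and Tsc22d3 and Ddit4 were called lower, where 12.0% were called lower. With a 2-fold minimum, Fkbp5 and Zbtb16 remained, against 0.270% of all genes in that direction. Fkbp5 was the 1 gene of the set whose groups did not overlap with NE higher (3.24% of all genes), and Tsc22d3 and Ddit4 were the 2 with NE lower (15.0%). The 9 genes had a median log2 difference of -0.19, and all genes tested had one of -0.04.

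Brimonidine against control used the same 3 controls, so it is no second test of the first comparison. The calls fell on the same 4 genes, with Fkbp5 and Zbtb16 higher (3.47% of 15947 genes) and Tsc22d3 and Ddit4 lower (12.3%), and with the 2-fold minimum Fkbp5 was left (0.169%). Here 2 genes were higher without overlap (5.07% of all genes), again Fkbp5 and Zbtb16, and 2 were lower without overlap (14.3%), Tsc22d3 and Ddit4. The median log2 difference of the 9 genes was -0.25, and that of all genes -0.03. Since Fkbp5 was chosen from these differences, the counts of higher genes are read no further, and the shares of lower genes describe the many genes that were lower against these controls. The calls of Zbtb16, Tsc22d3 and Ddit4 changed with single libraries. For NE against control, Zbtb16 was called only with NE 6 left out, among all single omissions, and Tsc22d3 only with NE 4 or NE 7 left out. Ddit4 lost its call without control 3 or NE 1, 3, 5, 6 or 7. For brimonidine against control, the calls of all 3 genes were lost without control 3. Zbtb16 also lost its call without control 1 or brimonidine 1, 4, 5 or 6, Tsc22d3 without brimonidine 1, 2 or 7, and Ddit4 without brimonidine 2, 5, 6 or 7.

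**Figure D3:**
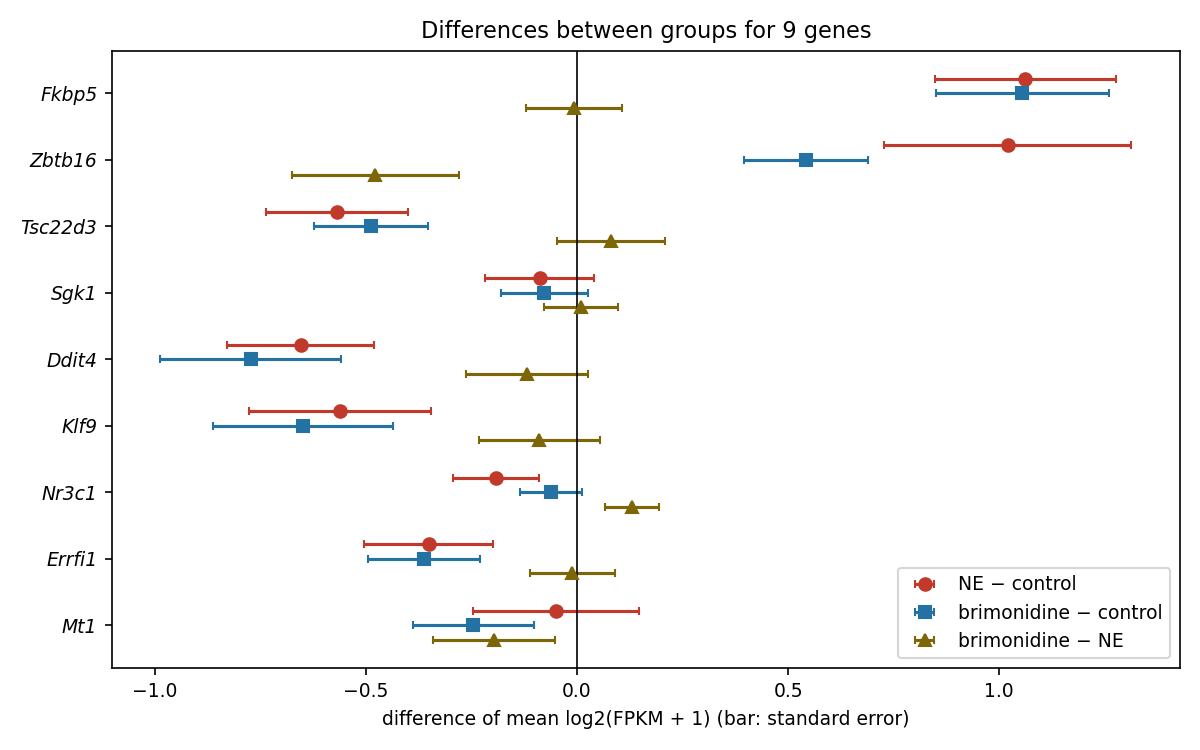
Difference of mean log2(FPKM + 1) (horizontal axis) for 9 genes in 3 comparisons, with standard errors from limma as bars. Fkbp5 lies near 1 against the controls in both exposed groups and near 0 between them, and Tsc22d3, Ddit4, Klf9 and Errfi1 lie below 0 against the controls.

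Whether brimonidine changed these genes after noise was asked by comparing the 2 exposed groups, 7 libraries each. None of the 9 genes tested was called by limma (1 of 15707 genes, 0.00637%, was called in all), and 1 of the 9 had an unadjusted p under 0.05, Zbtb16. The NE libraries had taken part in the choice of Fkbp5. For Fkbp5 the log2 difference for brimonidine minus NE was -0.01, with a 95% interval of -0.25 to 0.24, and the limma adjusted p was 0.999. For Tsc22d3 it was 0.08 (-0.19 to 0.35), for Sgk1 0.01 (-0.18 to 0.20), for Errfi1 -0.01 (-0.22 to 0.20) and for Klf9 -0.09 (-0.40 to 0.22). For Ddit4 the interval was -0.43 to 0.19, and for Mt1 it was -0.50 to 0.11.

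Zbtb16 and Nr3c1 had the largest differences relative to their spread. The Zbtb16 mean was 2.97 ± 0.59 FPKM (SD) with brimonidine and 4.80 ± 2.10 FPKM in the NE group. All 7 brimonidine libraries were below the NE mean, but all 7 were also within the NE range. The log2 difference was -0.48 (95% interval -0.90 to -0.06), with an exact two-sided permutation p of 0.0501 and a limma adjusted p of 0.851. An unadjusted limma p under 0.05 with a lower level was seen for 2.46% of all genes. Nr3c1 was at 18.5 ± 1.04 FPKM with brimonidine against 16.9 ± 1.78 in NE, with a log2 difference of 0.13 (-0.01 to 0.27), an exact two-sided permutation p of 0.0490 and a limma adjusted p of 0.868. Without NE 6, the library lowest in Nr3c1, the log2 difference was 0.08. Of the brimonidine libraries, 5 of 7 were above every NE library. These were 2 of 9 such exact tests, unadjusted, and neither difference passed the correction over all genes.

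Per length of exon, the order of levels was similar in the exposed groups. In the NE group Mt1 stood highest at 53.4 ± 14.0 FPKM, above Tsc22d3 at 26.6 ± 5.53 in 7 of 7 libraries, and Tsc22d3 was above Ddit4 at 21.5 ± 3.83 in 7 of 7. Ddit4, Fkbp5, Sgk1, Nr3c1, Klf9 and Errfi1 followed between 21.5 and 14.5 FPKM, and no neighbours among them kept their order in all 7 libraries. Zbtb16 came last of the genes detected, below Errfi1 in 7 of 7. In the control group Fkbp5, at 9.37 ± 3.49 FPKM, was below Errfi1 at 18.8 ± 3.57 in 3 of 3 libraries, while in the NE group Fkbp5 had the higher mean.

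The genes also varied from mouse to mouse within the exposed groups, which was examined over the 14 exposed libraries after subtracting each group's mean of log2(FPKM + 1). With Mt2 at 0, the other 9 genes gave 36 pairs. Pearson's r was positive in 29 pairs, with a median of 0.38, where the median over all pairs of the 15707 genes tested was 0.02. Within the NE libraries alone the median was 0.56 (31 of 36 pairs positive), and within the brimonidine libraries alone 0.08 (20 of 36). Whether these medians differ was not tested, and the pairs share libraries. The median over all genes takes in genes down to the filter of 1 FPKM and was not matched for level. The part of tissue makeup in these correlations was not tested.

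The pair with the strongest relation was Nr3c1 and Mt1, which ran opposite to each other. Pearson's r was -0.89 (permutation p = 0.00044 within groups, Benjamini-Hochberg adjusted p = 0.0158 over 36 pairs), and Spearman's rho was -0.78 (permutation p = 0.00532, adjusted p = 0.0949). NE 6 had the lowest Nr3c1 of all libraries at 13.3 FPKM and the highest Mt1 at 78.2, and without NE 6 and brimonidine 3 r was -0.71. Both libraries stood apart in other genes. NE 6 had the highest sum of neutrophil markers (62728 FPKM), and it was lowest of all libraries in the coregulator genes Ep300 (8.32 FPKM) and Ncor1 (14.4 FPKM). Brimonidine 3 was lowest of its group in both, at 11.96 and 17.3 FPKM, and the part of these features in the relation was not tested. The pair did not pass the correction when NE 1, 2, 5 or 6 or brimonidine 3 was left out, nor with values rescaled to equal totals or by the median ratio. No other pair passed over the 14 libraries. Among the others were Sgk1 with Klf9 (r = 0.73, permutation p = 0.00583, adjusted p = 0.105, rho = 0.71, permutation p = 0.01, adjusted p = 0.0949, and r = 0.78 without NE 1 and brimonidine 7) and Fkbp5 with Tsc22d3 (r = 0.66, permutation p = 0.0184, adjusted p = 0.116, rho = 0.70, permutation p = 0.0105, adjusted p = 0.0949, and r = 0.51 without NE 4 and brimonidine 3).

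**Figure D4:**
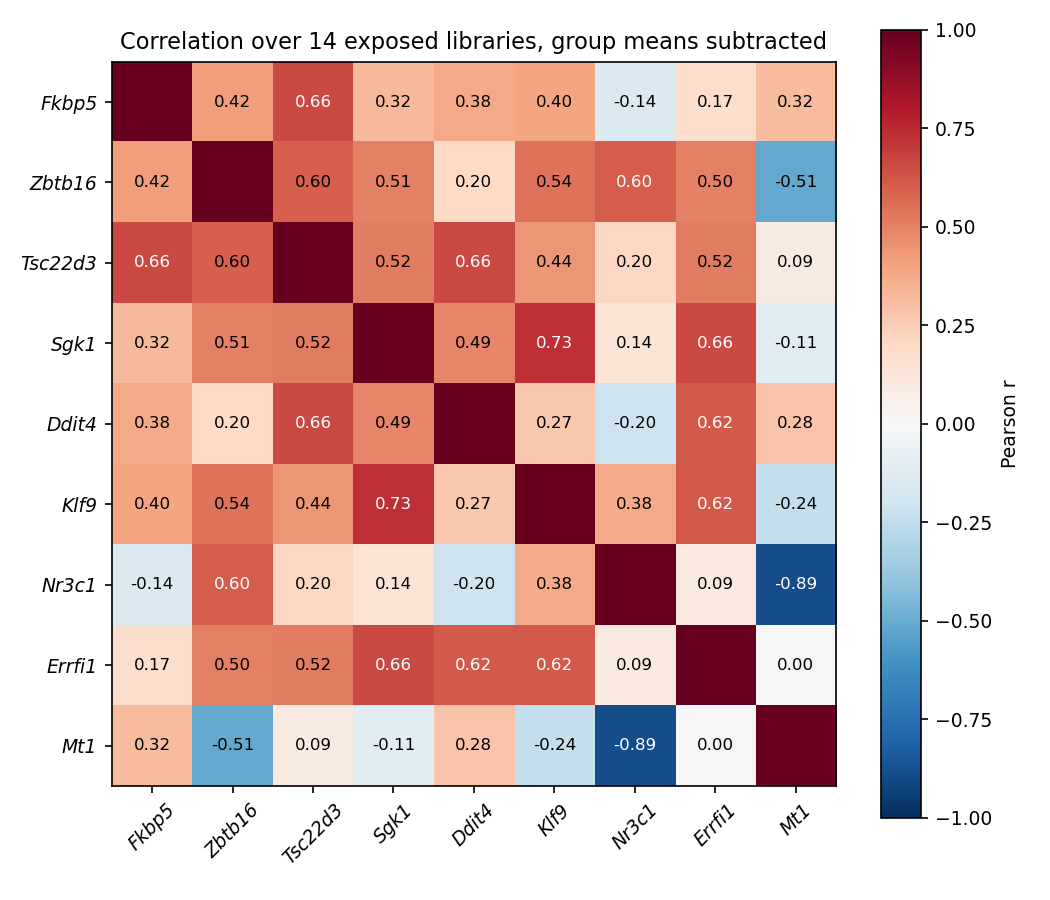
Pearson's r between 9 genes over the 14 exposed libraries, on log2(FPKM + 1) with group means subtracted (red positive, blue negative). Most cells are positive, with a median of 0.38 over 36 pairs, and the Nr3c1 and Mt1 cell at -0.89 is the most negative.

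Fkbp5 was then compared with every gene that had a mean of at least 5 FPKM in the exposed libraries, 8603 genes without Fkbp5. The 5 genes most like it over the 14 libraries were Sla (r = 0.84), Klf13 (r = 0.81), Mknk2 (r = 0.79), Sh3tc1 (r = 0.78) and Polr1c (r = 0.76). The 5 most opposite were Ighv1-62-2 (r = -0.76), Eny2 (r = -0.74), Ripor2 (r = -0.74), Ighv6-6 (r = -0.74) and Tbx18 (r = -0.74). Among the genes of the set that met this minimum, Tsc22d3 came closest to Fkbp5, in rank 35 of 8603 with r = 0.66. Klf9 (rank 675, r = 0.40), Ddit4 (rank 753, r = 0.38), Sgk1 (rank 1130, r = 0.32) and Mt1 (rank 1150, r = 0.32) followed. Errfi1 (rank 2423, r = 0.17) and Nr3c1 (rank 6473, r = -0.14) were further off. Zbtb16 was under the minimum of 5 FPKM and was not ranked, and its r with Fkbp5 was 0.42. In the NE libraries alone Fkbp5 ran with Sgk1 at r = 0.85 and with Ddit4 at r = 0.79, while in the brimonidine libraries alone the values were -0.56 and 0.07. Mt1 went the other way, with r = 0.04 in the NE and 0.81 in the brimonidine libraries. These values are descriptions over 14 and 7 libraries, and the difference between the groups was not tested.

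Beyond the 10 genes, 30 other known glucocorticoid targets were listed, of which 29 were tested and Hif3a was below the filter. Between NE and control 1 of the 29 was called higher, where 2.12% of all genes were, and 4 were called lower, where 12.0% were. The median log2 difference over the 29 was 0.10, against 0.03 without control 2 and 0.24 with quantile normalization. Map3k6, a stress kinase gene, rose from 2.13 ± 0.25 to 3.33 ± 0.42 FPKM (0.47 ± 0.10, limma adjusted p = 0.0133). Gpd1, the cytosolic glycerol-3-phosphate dehydrogenase, fell from 10.6 ± 3.55 to 3.11 ± 0.41 FPKM (-1.47 ± 0.16, limma adjusted p = 0.000248), and every NE library was below every control. Fam107a, an actin-binding stress gene of neurons and astrocytes, fell from 69.4 ± 25.0 to 26.4 ± 4.03 FPKM (-1.32 ± 0.19, limma adjusted p = 0.00128).

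Dusp1, a MAP kinase phosphatase, fell from 39.6 ± 14.7 to 21.5 ± 4.46 FPKM (-0.81 ± 0.23, limma adjusted p = 0.0403), and Per1, a circadian clock gene with its own response element, fell from 20.1 ± 3.63 to 11.3 ± 3.46 FPKM (-0.81 ± 0.22, limma adjusted p = 0.0371). Without control 2, Gpd1 (-1.23), Fam107a (-1.05) and Map3k6 (0.44) were still called, while Dusp1 (-0.80, limma adjusted p = 0.131) and Per1 (-0.71, limma adjusted p = 0.155) were not. Map3k6 lost its call without control 3, and Dusp1 and Per1 lost theirs also without control 3 and without each of several NE libraries. Gpd1 and Fam107a were lower in the groups that were lower in cerebellar markers, given above, and the part of tissue makeup in these values was not tested.

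In the brimonidine group, set against the same controls, 2 of the 29 targets were called higher (3.47% of all genes) and 5 lower (12.3%), with a median log2 difference of -0.04. The lower genes were Gpd1, Fam107a, Dusp1, Per1 and Mfsd2a, a lipid transporter of endothelium at -0.31 ± 0.09 (limma adjusted p = 0.0335). Of these, Dusp1 stood at -1.07 ± 0.22 (limma adjusted p = 0.0085). The higher genes were Map3k6, at 0.49 ± 0.10, and Cd163, a scavenger receptor of macrophages, at 0.29 ± 0.09 (limma adjusted p = 0.0462). Macrophage markers, 3 of 3 detected, summed to 163 to 177 FPKM in control and 179 to 221 in brimonidine libraries, and their part in the Cd163 value was not tested. Cd163 lost its call without control 1 or any 1 brimonidine library, and Mfsd2a without control 2 or any 1 brimonidine library but brimonidine 3. Between brimonidine and NE none of the 29 was called by limma. An unadjusted limma p under 0.05 with a lower level was seen for 2 of them, Angptl4 and Nfkbia, and for 2.46% of all genes.

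**Figure D5:**
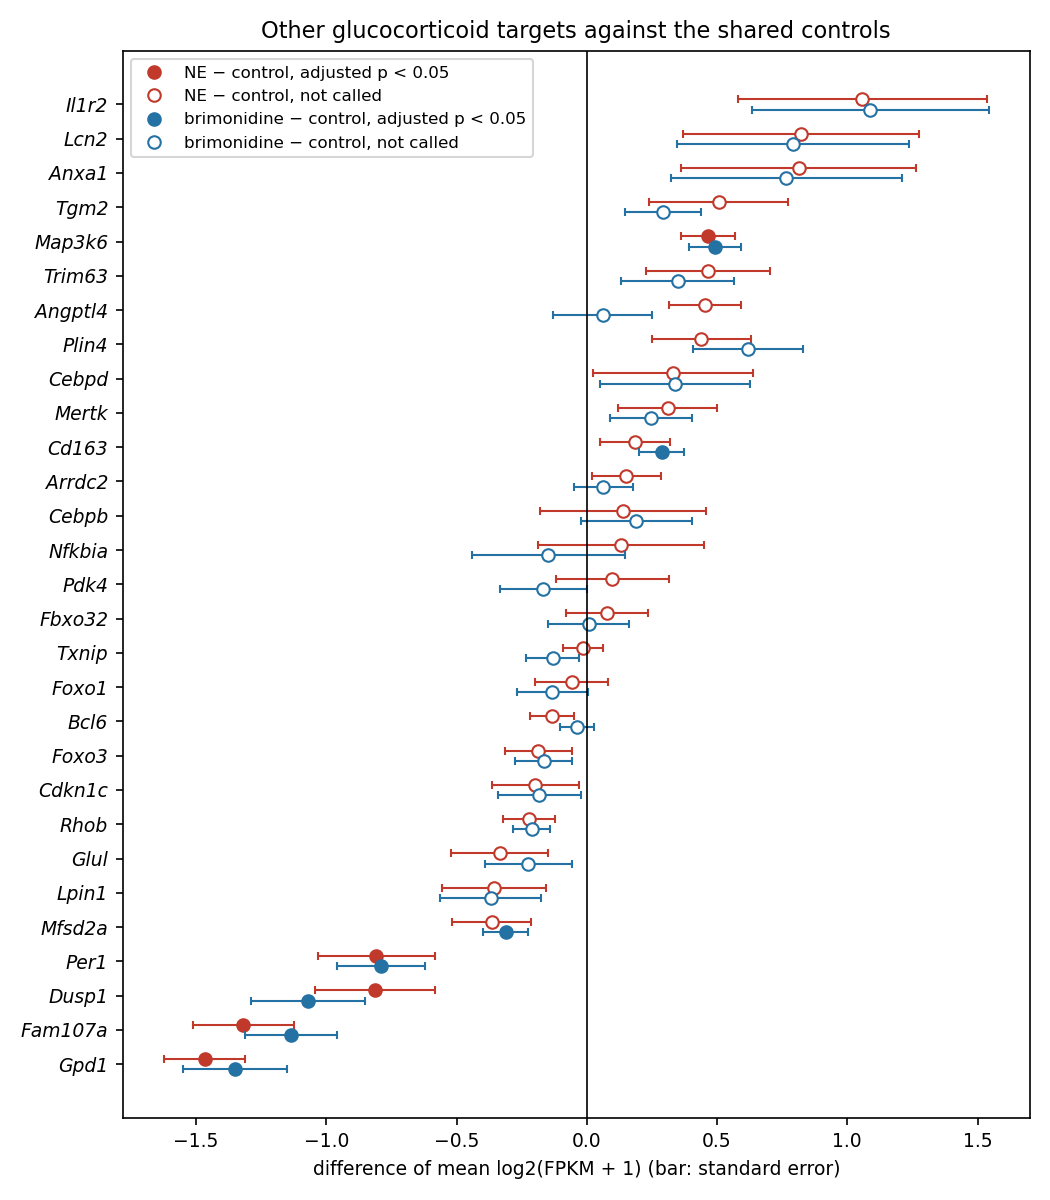
Difference of mean log2(FPKM + 1) from the shared controls (horizontal axis) for 29 other glucocorticoid targets in the NE group (red) and the brimonidine group (blue), with standard errors as bars and filled points for genes called. Gpd1, Fam107a, Dusp1 and Per1 lie furthest to the left, and Map3k6 is the 1 gene called higher in both groups.

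A list of 20 genes held the mineralocorticoid receptor, the steroid-converting enzymes, chaperones and coregulators of the receptor, of which 18 were tested. Between NE and control the 1 call was Hspa8, the constitutive HSC70 chaperone, which fell from 365 ± 30.4 to 261 ± 21.6 FPKM (-0.48 ± 0.12, limma adjusted p = 0.0211). Among all genes 12.0% were called lower. Hspa8 was not called with values rescaled by the median ratio. Hsp90aa1 at -0.37 ± 0.12 had the next smallest p, with a limma adjusted p of 0.0583. The median of the 18 was -0.22, and -0.11 without control 2. Between brimonidine and control none of the 18 was called by limma, with 8 at an unadjusted p under 0.05, as were 5672 of all 15947 genes tested, and the receptor coactivator genes Ncoa1 (-0.36 ± 0.12) and Crebbp (-0.26 ± 0.10) had the smallest p. Without control 2 these were at -0.19 and -0.14. Between brimonidine and NE none was called by limma, with 0 at an unadjusted p under 0.05, and the smallest p belonged to the chaperone genes Bag1 (0.10 ± 0.06) and Ptges3 (0.08 ± 0.06).

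The list of 14 inflammatory genes that glucocorticoids repress had 13 tested. Between NE and control all 13 had a mean log2 difference above 0. In mean FPKM, however, Tnf (15.3 against 19.5), Il1a (11.1 against 12.0) and Ccl3 (47.8 against 52.2) were lower in NE than in control. The 1 gene called was Cxcl10, a chemokine of interferon responses, from 3.88 ± 1.95 to 9.40 ± 3.29 FPKM (1.11 ± 0.29, limma adjusted p = 0.0288). Over all genes 2.12% were called higher. Nos2, the inducible nitric oxide synthase, had the next smallest p, at 1.45 ± 0.64 and at 0.41 without control 2. The call of Cxcl10 was lost without control 2 (limma adjusted p = 0.150), control 3, NE 2 or NE 7. Without control 2 the median of the 13 went from 0.48 to 0.11, with 9 of the 13 above 0 and 4 below. Control 3 was the highest control in all 13 but Ccl2 and Cxcl10, with Il1b at 183 FPKM against 33.8 and 19.4 in controls 1 and 2. With 1 library left out, the log2 difference ranged from 0.11 to 1.69 for Il1b and from 0.11 to 2.31 for Cxcl2. Between brimonidine and control none was called by limma, with 2 at an unadjusted p under 0.05, Cxcl10 (0.64 ± 0.23) and Ccl2 (0.47 ± 0.18), both higher, as were 2167 of all 15947 genes at that p. The median was 0.12, and -0.38 without control 2. Between brimonidine and NE all 13 had a mean difference below 0 with a median of -0.56, where the median of all genes was 0.01. None was called by limma, and 8 had an unadjusted p under 0.05 with a lower level, where 2.46% of all genes did. The smallest belonged to Ptgs2, the inducible cyclooxygenase, at 2.19 ± 0.44 FPKM with brimonidine against 3.62 ± 0.55 (-0.54 ± 0.09, limma adjusted p = 0.172), and to Il1b, at 40.8 ± 12.7 against 92.7 ± 48.1 (-1.11 ± 0.26, limma adjusted p = 0.334), where NE 6 reached 197 FPKM. Ptgs2 passed in 1 other setting, with array weights, at an adjusted p of 0.0394. The 13 genes were measured in the same libraries and are not independent of each other. NE 6 was the highest NE library in Il1b, Tnf, Ccl3, Ccl4, Cxcl1 and Cxcl2, but not in the other genes tested. The list was chosen with earlier results of these data known. The study had itself named Il1b as lowered by brimonidine in these libraries, so the counts for this list are a description.

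A list of 10 genes that respond to hypoxia or ATF4, the other inputs to Ddit4, gave 1 call against control, Bnip3, a mitophagy gene. It fell by 0.41 on the log2 scale (SE 0.11, limma adjusted p = 0.0360) in the NE group and by 0.43 (SE 0.13, limma adjusted p = 0.0416) in the brimonidine group. The share of all genes called lower was 12.0% for NE and 12.3% for brimonidine. Without control 2 Bnip3 was called in neither comparison, with a limma adjusted p of 0.150 and 0.144, nor without control 3. The call was also lost in both comparisons with values rescaled to equal totals or by the median ratio and with quantile normalization. Ddit3 was next, at -0.30 ± 0.12 and -0.24 ± 0.10, and at -0.16 and -0.09 without control 2. The list's median was 0.02 for NE and -0.01 for brimonidine against control, and -0.09 and -0.08 without control 2. Between brimonidine and NE Vegfa (0.10 ± 0.06) and Asns (-0.09 ± 0.07) had the smallest p, and none was called between the exposed groups by limma, with 0 at an unadjusted p under 0.05.

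Of 6 metallothionein and zinc genes beside Mt1 and Mt2, 5 were tested. Mt3, the metallothionein of neurons and astrocytes, fell from 19.8 ± 7.56 to 7.26 ± 0.73 FPKM in the NE group (-1.28 ± 0.17, limma adjusted p = 0.000786) and to 7.56 ± 1.26 with brimonidine (-1.23 ± 0.19, limma adjusted p = 0.00203). Slc39a10, a zinc importer, fell by 0.62 (SE 0.17, limma adjusted p = 0.0391) and 0.56 (SE 0.13, limma adjusted p = 0.0158). Calls of lower genes made up 12.0% of all genes for NE and 12.3% for brimonidine. Without control 2, Mt3 was still called at -0.99 and -0.95, and Slc39a10 was called for brimonidine against control but not for NE against control. As for Gpd1, the part of the lower cerebellar markers in the exposed groups was not tested. Mtf1, the metal sensor, was at 5.06, 4.60 and 5.21 FPKM on average and was not called. None of the 5 was called between the exposed groups by limma. There, 2 had an unadjusted limma p under 0.05, Mtf1 (0.15 ± 0.06) and the zinc importer gene Slc39a14 (-0.22 ± 0.10), as did 906 of all 15707 genes tested.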

How the data were processed

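RNA of 17 cochleae (3 control, 7 NE, 7 brimonidine) was extracted with TRIzol, and stranded TruSeq mRNA libraries were run on a NovaSeq sequencer. For each of 35285 genes the deposited table gives an FPKM value, which the authors computed. The submitters' processing notes name Trimmomatic, HISAT2, Cufflinks, HTSeq and mm10, without roles or order. The annotation release and the strand setting of the counting are not given in the sources used here. Whole fragments (within 0.05) were recovered for 99.6% of genes from GENCODE M21 exon lengths or, for 2394 genes, Fkbp5, Klf9 and Nr3c1 among them, from a length solved from the values. Gene positions are those of the deposited table, which matched M21 for 93.9% of 35207 genes.

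Groups came from the sample labels. Genes at 1 FPKM or more in at least 3 libraries compared were fitted with limma 3.58.1 (R 4.3.3, lmFit, eBayes with trend) on log2(FPKM + 1), which understates changes of low genes, with 2 groups per model, Benjamini-Hochberg adjustment over all genes and a call at 0.05. The study used DESeq2 on counts, which FPKM values are not. Replicates are mice. Single genes were compared between the exposed groups with exact two-sided permutation tests and correlations with 100000 resamples within groups (scipy 1.17.1, numpy 2.4.6, pandas 2.3.3, Python 3.11.15). Figures were drawn with matplotlib 3.10.9.

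The 10 genes, the gene lists and the marker lists were chosen with earlier results of these data known. Named were the 10 genes, in each list the genes called (up to 4 per direction, or the 2 with the smallest p where fewer than 2 were called), and the 5 genes most and least like Fkbp5. Genes named outside this rule (Gm45774, Hif3a, Ep300, Ncor1 and, beyond the 4 lower targets in the brimonidine comparison, Mfsd2a) were added after their values were seen. Same-numbered libraries of different groups did not deviate together (r between -0.22 and 0.083), so no pairing was used.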

Additional observations from a re-analysis of the deposited data

Results flagged for a closer look

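Mt1 in brimonidine 3 was flagged because it lay far from the other 6 brimonidine libraries, at 63.0 FPKM against 48.9 for the next highest. The gap took up 0.594 of the group's range, above Dixon's critical value of 0.568 for 7 libraries. It was 1 flag among 18 groups checked, 9 genes in 2 groups, and chance flags about 1 in 20. Of the library's other values, Nr3c1 was the lowest of its group at 16.4 FPKM, and Fkbp5 (24.9 FPKM) and Tsc22d3 (33.4 FPKM) were the highest.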

How the results depend on the processing

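Against control, 4 genes were called in each comparison (2 higher, 2 lower). For NE against control the number was 2 with a 2-fold minimum, 1 without a filter on low values, 2 with totals made equal, 2 with median-ratio scaling and 0 with the replicate number as a block. It was 1 to 4 with 1 library left out. For brimonidine against control it was 1 with a 2-fold minimum, 1 without a filter, 7 with array weights and 0 with the replicate block, and 1 to 5 with 1 library left out. In the replicate block, which used only a shared number, calls over all genes went from 338 higher and 1909 lower to 0 and 0 for NE, and from 553 and 1965 to 2 and 234 for brimonidine against control. Without control 2, 135 genes were called higher and 905 lower for NE against control. Fitting the recovered fragments with voom called 315 genes higher and 1980 lower for NE against control, 1 higher and 0 lower for brimonidine against NE, and 565 higher and 2085 lower for brimonidine against control. With array weights the numbers over all genes were 2288 higher and 3682 lower for NE and 2981 and 3935 for brimonidine against control, against 621 and 1671, and 868 and 1863, by the median ratio. Over the other gene lists, 10 genes were called against control in each comparison. Of all genes tested, 2.12% were called higher and 12.0% lower for NE, and 3.47% and 12.3% for brimonidine. The 10 calls became 4 and 4 with a 2-fold minimum, and 5 for NE without control 2. No setting called any of the 10 genes between brimonidine and NE. There, differences near 0 changed sign: Fkbp5 was 0.0153 and Errfi1 0.0116 with equal totals, Sgk1 was -0.0069 by the median ratio and -0.000847 with array weights, and Tsc22d3 was -0.0214 with array weights. With 1 library left out, these ranged from -0.0613 to 0.0512 for Fkbp5, -0.0492 to 0.0569 for Errfi1 and -0.0345 to 0.0436 for Sgk1. The 1 correlated pair became 0 pairs with either of these scalings, 2 in the NE libraries alone, 0 in the brimonidine libraries alone, and 0 to 2 with 1 library left out. The cause of these shifts was not tested. With 3 controls, of which control 2 stands apart, the precision of every difference from control is low.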

Other observations

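Klf9 followed cell type markers across the 14 exposed libraries. After subtracting group means, its Pearson's r with the summed level of 4 skeletal muscle markers was 0.88 (permutation p = 8e-05, adjusted p = 0.00504), Spearman's rho was 0.88 (permutation p = 1e-05, the smallest the 100000 resamples can give, adjusted p = 0.00126), and r was 0.83 without NE 6 and brimonidine 5. With the sum of 7 neutrophil markers Klf9 had r = -0.83 (permutation p = 2e-05, adjusted p = 0.00252), rho = -0.83 (permutation p = 0.0006, adjusted p = 0.0378), and r = -0.79 without the same libraries. These were the 2 of 126 pairs of a gene and a marker list that passed the adjustment, which was added after the values had been seen. The next were Errfi1 with 3 astrocyte markers (r = 0.76, permutation p = 0.00168, adjusted p = 0.0706, rho = 0.76, permutation p = 0.0034, adjusted p = 0.12) and Sgk1 with the same markers (r = 0.70, permutation p = 0.00487, adjusted p = 0.153, rho = 0.71, permutation p = 0.00381, adjusted p = 0.12). Muscle markers, 4 of 4 detected, summed to 135 to 378 FPKM in control, 271 to 703 in NE and 211 to 576 in brimonidine libraries.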
